A study of Mus musculus with 6 samples.

Results

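Plasma protein and acute-phase transcripts were read from 12 probes of 10 genes, of 36163 gene or transcript names on the array, in mouse hearts after tail-suspension or a sham treatment. The genes were Hp, Saa3, Saa1, Ahsg, Ttr, Alb, Apod, Apoe, Apoa1 and Apoa2, and every probe that carried one of these names was taken. The genes were chosen by their measured difference between tail-suspended and sham hearts on these same arrays, together with genes of the same kind that had not differed. Their differences are therefore a description, they carry no p-value here, and they support no further statement. Tail-suspension lifts the hindlimbs off the floor by the tail and is used to simulate microgravity. Both groups were male C57BL/6 mice, 3 sham and 3 tail-suspended for 28 days, and total RNA of cardiac muscle from each mouse was hybridised to a 1-colour Agilent array. The sham mice were kept in the same space on the same feed. By the labels the mice were 10 weeks old at the start, and an age of 11 weeks is also given, which is less than 28 days later. The labels name no transgene, deletion or drug in either group. RNA of whole tissue was measured, so fewer cells of a type and less RNA per cell cannot be told apart.

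Plasma proteins are made mostly by hepatocytes and secreted into the blood, where they carry lipids, hormones and haemoglobin or act in defence. In inflammation, IL-6, IL-1 and glucocorticoids act on the liver through STAT3, NF-kB, C/EBP factors and the glucocorticoid receptor, which raises the positive acute-phase proteins, among them haptoglobin and serum amyloid A, and lowers negative ones such as albumin, transthyretin and fetuin-A. Some of these genes are also used outside the liver, Saa3 and haptoglobin in inflamed tissue and myeloid cells, apolipoprotein E in macrophages, and apolipoprotein D in fibroblasts and glia.

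The sequences of the probes show which part of each transcript was read. Coordinates are those of the scanner files, on mouse build mm9. Probes of Ahsg and Apod lay in the 3′ parts of their transcripts. The last 30 bases of each 60-base probe are given, with the polyadenylation signal AATAAA in capitals.
Ahsg, A_51_P424854, chr16:22899415-22899474, plus strand: caatcttcaatctagccataAATAAAagtg
Apod, A_55_P2093286, chr16:31297206-31297265, minus strand: gctagcccaatAATAAAcattttgctgatc
Apod, A_55_P2055158, chr16:31296299-31296358, minus strand: tgtatagtctgttgtatgcttttcatttaa
The Apod probe that starts at base 874 of its transcript holds this signal, whereas the Apod probe that starts at base 1781 lies further along and does not, so the pair reads 2 stretches of the Apod 3′ end. Probes of Saa3, Saa1, Apoe and Alb are given whole. The TGA in capitals in the Saa1 probe is the stop codon, and the other 3 each hold at least 1 reading frame without a stop codon.
Saa3, A_55_P1953169, chr7:53970389-53970448, minus strand: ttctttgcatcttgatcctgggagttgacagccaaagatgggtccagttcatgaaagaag
Saa1, A_52_P318673, chr7:53996070-53996129, minus strand: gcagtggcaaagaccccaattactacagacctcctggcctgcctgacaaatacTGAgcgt
Apoe, A_51_P171999, chr7:20281732-20281791, minus strand: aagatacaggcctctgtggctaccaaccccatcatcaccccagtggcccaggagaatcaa
Alb, A_51_P160713, chr5:90901598-90901657, plus strand: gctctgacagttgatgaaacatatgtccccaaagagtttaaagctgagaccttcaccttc
Saa1 and Saa2 are near-identical genes, and a 60-base probe of one may also bind transcripts of the other, so the level of Saa1 is uncertain to that extent.

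Promoters were printed for Saa3, Ahsg and Apod, whose groups did not overlap, and for Saa1, whose groups did. They come from RefSeq on build GRCm38.p6, and promoters of 8 of the 10 genes were used. Each run covers the 250 bases before the start of the gene. Capitals mark matches, on either strand, to TTCNNNGAA (the STAT motif), TTGCNNAA (C/EBP), GGNNTTTCC (NF-kB), AGAACA (a core of the glucocorticoid receptor motif) or GTTAAT (a core of the HNF1 motif).
Saa3, chr7:46715677-46715926, minus strand: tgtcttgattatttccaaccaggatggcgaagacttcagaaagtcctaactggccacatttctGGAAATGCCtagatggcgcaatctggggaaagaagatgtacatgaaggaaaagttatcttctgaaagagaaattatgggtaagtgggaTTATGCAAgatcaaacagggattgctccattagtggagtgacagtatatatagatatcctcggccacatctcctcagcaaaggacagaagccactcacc
Saa1, chr7:46742981-46743230, minus strand: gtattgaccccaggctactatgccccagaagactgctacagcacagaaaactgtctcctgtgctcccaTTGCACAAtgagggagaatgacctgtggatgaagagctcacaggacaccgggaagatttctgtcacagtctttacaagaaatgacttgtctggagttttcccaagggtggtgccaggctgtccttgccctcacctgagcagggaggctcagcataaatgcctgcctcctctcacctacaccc
Ahsg, chr16:22891765-22892014, plus strand: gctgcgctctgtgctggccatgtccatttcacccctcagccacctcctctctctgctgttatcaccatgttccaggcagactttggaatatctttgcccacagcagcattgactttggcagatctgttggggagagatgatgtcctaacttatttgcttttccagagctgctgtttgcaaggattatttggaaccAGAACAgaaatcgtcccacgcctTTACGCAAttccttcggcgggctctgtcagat
Apod, chr16:31314809-31315058, minus strand: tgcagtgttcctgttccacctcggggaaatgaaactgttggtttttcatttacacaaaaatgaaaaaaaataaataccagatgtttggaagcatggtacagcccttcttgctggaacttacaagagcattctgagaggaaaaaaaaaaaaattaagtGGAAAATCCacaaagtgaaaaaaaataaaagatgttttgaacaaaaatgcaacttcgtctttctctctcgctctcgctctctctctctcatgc
Counted over 250 bases before and 50 after the start, the C/EBP motif was in promoters of Saa3, Saa1, Ahsg, Alb and Apoa2, that is in 5 of the 11 promoters that the 8 genes have in the table, where 10.8% of all 32851 promoters held it. The NF-kB motif was in 2 of the 11, those of Saa3 and Apod (5.82% of all promoters). The glucocorticoid receptor core was in 2 of the 11, of Ahsg and Apoe (19% of all promoters), and the HNF1 core in 2, of Alb and Apoe (7.1%). The STAT motif was in 0 of the 11, against 8.3% of all promoters. A match is a string of letters, not a site shown to be bound, and motifs were present in genes whose groups did not overlap (Saa3, Ahsg, Apod, Apoe), in genes whose groups overlapped (Saa1, Apoa2) and in Alb, which was not detected.

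On each array, Agilent Feature Extraction gave a processed intensity, the brightness of a spot after background correction, and flagged a spot as well above background or not. Levels were compared as log2 intensity minus the log2 of the array's own 75th percentile (302 to 376 over the 6 arrays), so a log2 level of 0 is an intensity at that percentile. Between 50.9% and 53.4% of probes were well above background on an array. The dimmest such probe on each array had an intensity between 14.0 and 19.5, and below this a level is known only as a bound. Cardiomyocyte markers fitted the tissue label, with 10 of 10 well above background on all 6 arrays.

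Haptoglobin (Hp) binds free haemoglobin in plasma. Its processed intensity was 93.6, 60.8 and 44.3 in the 3 sham hearts. In the tail-suspended hearts it was 2492, 671 and 1043. The groups did not overlap, and the lowest tail-suspension array was far above the highest sham array. The log2 level was -2.31 ± 0.50 in sham and 1.73 ± 1.04 in tail-suspended hearts (SD, n = 3 each), a log2 difference of 4.04 ± 0.52 (SE), or 16.5-fold. After normexp background correction, which adds an offset to every spot, the log2 difference of Hp was 3.10.

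Serum amyloid A proteins ride on high-density lipoprotein during inflammation. Saa3, a form made mainly outside the liver, had an intensity of 3.41, 3.36 and 4.31 in sham hearts, none of them well above background. After tail-suspension it was 115, 19 and 107, and replicates 1 and 3 were well above background while replicate 2 was not. Saa3 was therefore not tested, and by the measured values the tail-suspension mean was at least 3.53-fold higher, with that group measured on 2 of 3 arrays and replicate 2 taken at its measured value, just under its array's limit. This fold sets the mean of the bright group against the lowest signal well above background on the sham arrays.

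Saa1, a form that the liver makes in the acute phase, did not show this separation of the groups. Its intensity was 175, 220.4 and 194 in sham and 277, 206 and 210.1 in tail-suspended hearts, well above background on all 6 arrays. The groups overlapped, and the log2 difference was 0.02 ± 0.18 (SE), with a 95% interval from -0.41 to 0.45. Its chromosomal neighbours Saa2 and Saa4 were not well above background on any array.

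Ahsg, which encodes fetuin-A, an inhibitor of calcification, had an intensity of 181, 194 and 285 in sham hearts. In tail-suspended hearts it was 2387, 1099 and 2941, and the groups did not overlap. The log2 level was -0.55 ± 0.40 in sham and 2.44 ± 0.78 after tail-suspension (SD, n = 3 each), a difference of 2.99 ± 0.40 (SE), or 7.93-fold.

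Ttr encodes transthyretin, which carries thyroid hormone and retinol-binding protein. In sham hearts its intensity was 20.5, 19.9 and 10.9, of which the third was not well above background, and in tail-suspended hearts it was 138, 71.8 and 169.8. The groups did not overlap, at a log2 difference of 2.64 ± 0.37 (SE), or 6.23-fold. This probe was dim in sham hearts, and its difference was 0.96 after normexp background correction.

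Alb, the main protein of plasma, was not well above background on any of the 6 arrays. Its intensity lay between 3.44 and 3.46 in sham and between 3.21 and 4.74 in tail-suspended hearts. Alb, a hepatocyte product like Ahsg and Ttr, was thus not detected in either group.

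Among the apolipoproteins, Apod, a lipocalin that binds arachidonic acid, was read by 2 probes. The probe that starts at base 874 had an intensity of 1410 in sham replicate 1, 1597 in replicate 2 and 1075 in replicate 3. In tail-suspended hearts it was 18333, 11386 and 21186, without overlap. The log2 level was 2.09 ± 0.24 in sham and 5.50 ± 0.50 after tail-suspension (SD, n = 3 each), a difference of 3.40 ± 0.26 (SE), or 10.6-fold.

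The Apod probe that starts at base 1781 was not well above background in sham hearts, at 4.51, 5.47 and 9.67. It was well above background on all tail-suspension arrays, at 127, 64.5 and 119. The tail-suspension mean was at least 5.67-fold higher, and the fitted log2 difference of 3.79 depends on sham values below background. Both probes of Apod were thus higher in tail-suspended hearts. After normexp background correction the difference of the dimmer probe was 0.96.

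Apoe, a ligand of lipoprotein receptors, was read by 1 probe printed as 10 spots. Its intensity was 23862, 21797 and 21602 in sham and 48693, 35237 and 67706 in tail-suspended hearts. The 10 spots within an array differed little, with a coefficient of variation between 1.18% and 2.06%, so the spread in the tail-suspension group lay between arrays. The groups did not overlap, at a log2 difference of 0.91 ± 0.23 (SE), or 1.88-fold. Apoe stayed past the threshold of the fit without tail-suspension replicate 2 (1.17) and missed it when any 1 of the other 5 arrays was left out (0.70 to 0.94).

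Apoa1, the main protein of high-density lipoprotein, was not well above background on any array. The means of its 10 spots lay between 3.34 and 3.66 in sham and between 2.96 and 4.46 in tail-suspended hearts. Apoa2, the second protein of that particle, was well above background on all 6 arrays by both probes. The probe that starts at base 455 had an intensity of 1712, 1490.3 and 1671 in sham and 1817, 1889.9 and 1893 in tail-suspended hearts, at a log2 difference of -0.01 ± 0.10 (SE). The probe that starts at base 330 lay between 98.1 and 115 in sham and between 108 and 131 after tail-suspension, at a log2 difference of -0.05 ± 0.11. The intensities of the first probe did not overlap before scaling, but relative to the 75th percentile the groups overlapped by both probes, with 95% intervals from -0.24 to 0.22 and from -0.31 to 0.21.

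**Figure D1:**
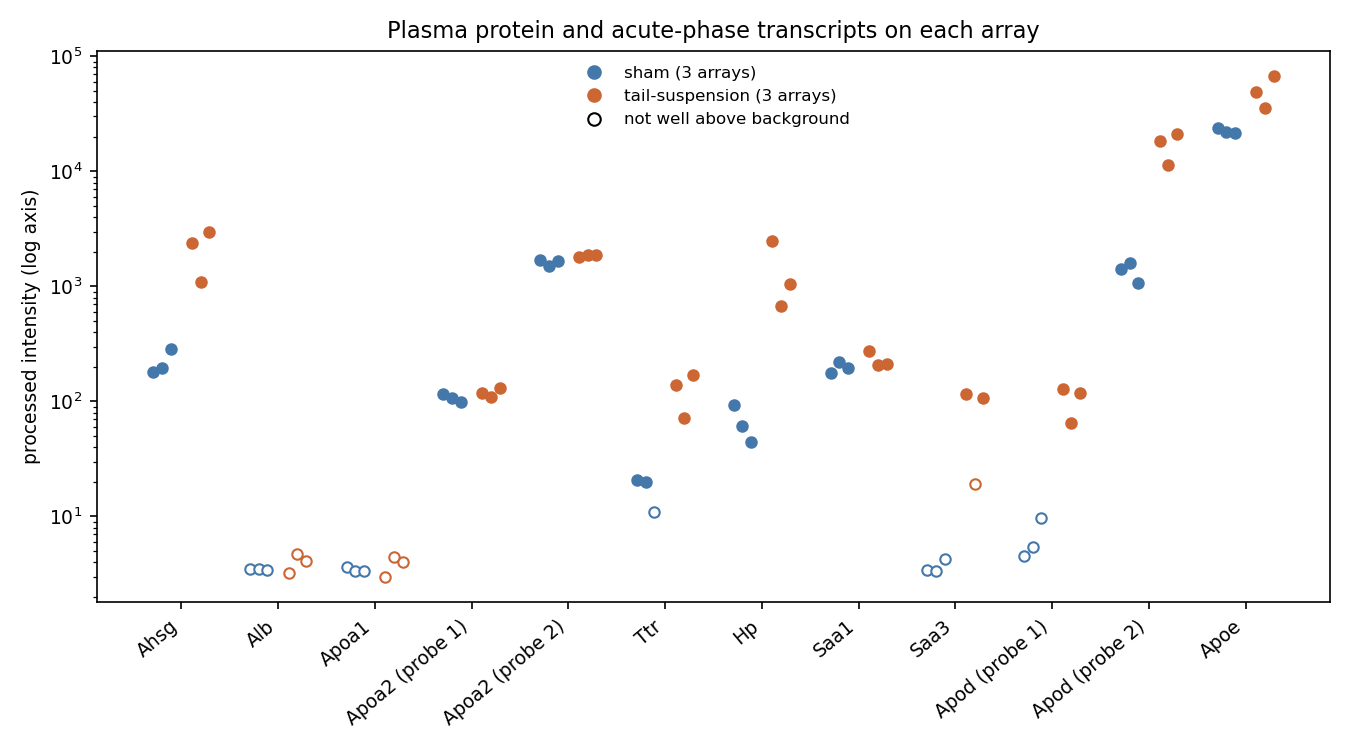
Processed intensity (log axis) of the 12 probes on each of the 3 sham and 3 tail-suspension arrays, before scaling between arrays, with 1 point per array in the order of the replicate numbers and open points where the probe was not well above background. Apod probe 1 starts at base 1781 and probe 2 at base 874, Apoa2 probe 1 at base 330 and probe 2 at base 455. Hp, Ahsg, Ttr, Saa3, Apod and Apoe have every tail-suspension array above every sham array, and Alb and Apoa1 have only open points.

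Of the 12 probes, 9 were tested in the fit over all probes (limma, Benjamini-Hochberg, threshold 0.05), 7 were well above background on all 6 arrays, and 2 of the 10 genes were not detected on any. Past the threshold, 6 probes of 5 genes (Hp, Ahsg, Ttr, Apod and Apoe) were higher after tail-suspension and 0 were lower, where 10.8% of all 28032 tested probes were higher and 9.57% lower. In 6 of the 9 tested probes every tail-suspension array lay above every sham array, as in 22.1% of all tested probes. The genes were chosen on this contrast, and 1 Apod probe entered the test only through the group in which it was high, so nothing is read from these counts. The median log2 difference was 2.64 over the 9 probes and 0.00 over all tested probes.

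Tail-suspension replicate 2 had the lowest level of its group for Hp, Ahsg, Ttr, Saa3, Apod and Apoe, which is a description of genes chosen on these arrays. Over all 3023 probes that were higher, replicate 2 was the lowest in 48.1%, replicate 1 in 32.1% and replicate 3 in 19.9%. For Hp the log2 level of replicate 2 exceeded the sham mean by 3.15, against 5.18 for replicate 1 and 3.79 for replicate 3. For Apoe the excess was 0.39 in replicate 2, 1.00 in replicate 1 and 1.34 in replicate 3. For Saa3 it was 2.11 in replicate 2, 4.86 in replicate 1 and 4.61 in replicate 3, where it was below the background limit in all sham hearts and in replicate 2. Replicate 1 was thus the highest for Hp and replicate 3 for Apoe. Without replicate 2 the difference was 4.49 for Hp and 1.17 for Apoe.

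A single slide carried the 6 arrays, and 1 scan read them. Its first row held the 3 sham arrays with tail-suspension replicate 1, and its second row held tail-suspension replicates 2 and 3. Within the first row, replicate 1 exceeded the sham mean by 5.18 for Hp, 3.65 for the brighter Apod probe, 3.35 for Ahsg, 2.95 for Ttr and 1.00 for Apoe on the log2 scale. With slide rows as a block, 3 of the 6 probes stayed past the threshold, those of Hp and Apod, and those of Ahsg, Ttr and Apoe did not. This describes genes chosen on this contrast. Leaving out 1 array at a time gave log2 differences of 3.47 to 4.49 for Hp, 3.24 to 3.69 for the brighter Apod probe, 2.72 to 3.43 for Ahsg, 2.37 to 3.03 for Ttr and 0.70 to 1.17 for Apoe.

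**Figure D2:**
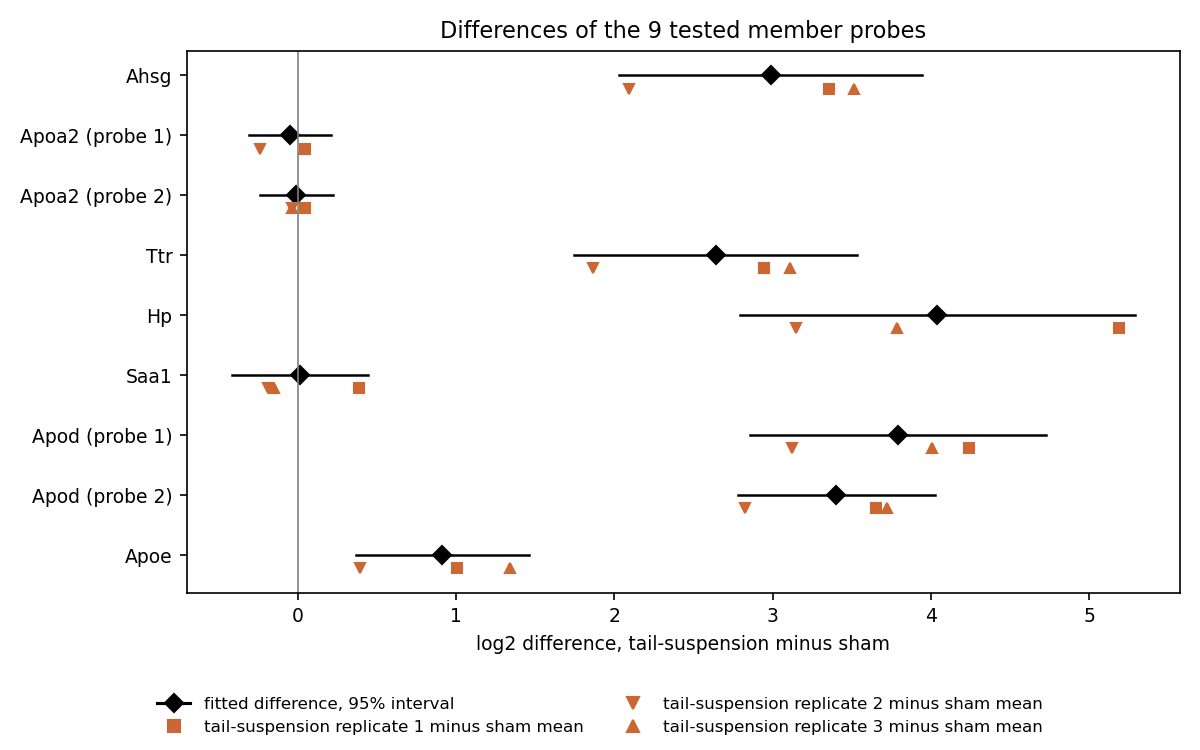
Log2 differences between tail-suspension and sham for the 9 tested probes, with diamonds for the fitted difference, lines for its 95% interval, and a square, a downward and an upward triangle for tail-suspension replicates 1, 2 and 3, each minus the sham mean. Replicate 2 is the lowest of the 3 for Hp, Ahsg, Ttr, both Apod probes and Apoe, and the Apoa2 and Saa1 differences lie near 0.

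Other genes of the same pathways were read from lists, 1 probe per gene, and here adjusted p-values (limma, Benjamini-Hochberg) are given. Over all 20674 genes tested, 10.5% were higher and 9.8% lower, with a median log2 difference of -0.01. The genes named are those past the threshold, up to 4 for each list by size. These lists were also compiled with results of these arrays known.

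Of 20 further acute-phase proteins, 9 were tested, 5 were higher and 0 lower, with a median log2 difference of 1.31. Lcn2, which binds bacterial siderophores, had an intensity of 226, 305 and 271 in sham and 5860.1, 1913 and 11845 in tail-suspended hearts, a log2 difference of 4.05 ± 0.61 (SE, adjusted p = 0.0093). Serpina3n, a protease inhibitor from a family of closely similar genes whose transcripts a probe may share, lay at 58.5, 66.4 and 72.1 in sham and at 1436, 559.5 and 1495 in tail-suspended hearts, a log2 difference of 3.81 ± 0.40 (adjusted p = 0.0033). In both genes, as in Hp, tail-suspension replicate 2 was the lowest of its group, as in 48.1% of all probes that were higher. C3, the central complement protein, was higher by 1.73 ± 0.16 (adjusted p = 0.0026), and Hpx, which binds haem, by 1.37 ± 0.21 (adjusted p = 0.0091). Hpx was not well above background in sham hearts and entered the test through the tail-suspension group alone. It was at least 1.27-fold higher after tail-suspension, and its log2 difference was -0.0070 after normexp background correction. Cp, which carries copper, was the fifth, chosen after its values were seen, at 1.17 ± 0.14 (adjusted p = 0.0046). The lowest of the tail-suspension group was replicate 2 for C3, replicate 1 for Cp and replicate 3 for Hpx. Another 10 of the 20, Saa2 and Saa4 among them, were not well above background on any array.

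Of 28 other plasma proteins of the liver, 13 were tested, 2 were higher and 1 lower, with a median log2 difference of 0.12. Fetub, which encodes fetuin-B, a protease inhibitor of the fetuin family, lies beside Ahsg on chromosome 16. Its intensity was 66.8, 48.6 and 49.0 in sham and 388, 204 and 656 in tail-suspended hearts, a log2 difference of 2.57 ± 0.40 (SE, adjusted p = 0.01). Itih3, a heavy chain that binds hyaluronan, was not well above background in sham hearts and at least 4.64-fold higher after tail-suspension (fitted log2 difference 2.93, adjusted p = 0.0023). It entered the test through the tail-suspension group alone. Vtn, which encodes vitronectin, was lower, at a log2 difference of -0.59 ± 0.13 (adjusted p = 0.028), and missed the threshold when any single array other than tail-suspension replicate 1 was left out (adjusted p 0.053 to 0.086). Another 11 of the 28 were not well above background on any array.

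Of 16 other apolipoproteins and enzymes of lipoproteins, 9 were tested, 2 were higher and 0 lower, with a median log2 difference of 0.30. Apoc2, the activator of lipoprotein lipase, lay at 23.2, 17.5 and 17.9 in sham and at 123, 44.5 and 294 in tail-suspended hearts. Its log2 difference was 2.39 ± 0.62 (SE, adjusted p = 0.041). Gpihbp1, which anchors lipoprotein lipase in capillaries, was higher by 0.68 ± 0.19 (adjusted p = 0.0497). Apoc2 missed the threshold when any single array other than tail-suspension replicate 2 was left out (adjusted p 0.077 to 0.12), and Gpihbp1 without sham replicate 1 or 2 or tail-suspension replicate 1 or 3 (adjusted p 0.13 to 0.15). Over all alternatives adjusted p-values ranged from 0.0065 to 0.21 for Apoc2 and from 0.0098 to 0.15 for Gpihbp1.

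Of 20 receptors and handlers of these proteins, 16 were tested, 6 were higher and 1 lower, with a median log2 difference of 0.10. Fpr2 and Fpr1, formyl peptide receptors of phagocytes, of which Fpr2 also binds serum amyloid A, were not well above background in sham hearts. They were at least 1.85-fold and 1.99-fold higher after tail-suspension (adjusted p = 0.0023 and 0.0028). Cd163, the macrophage receptor that clears complexes of haptoglobin and haemoglobin, was also not well above background in sham and at least 3.39-fold higher (adjusted p = 0.024). Fpr2, Fpr1 and Cd163 entered the test through the tail-suspension group alone, and their fits rest on sham values below background. Abca1, which loads lipid onto apolipoproteins A-I and E, was higher by a log2 difference of 0.96 ± 0.22 (SE, adjusted p = 0.029). Cd163 missed the threshold without tail-suspension replicate 1 or 3 (adjusted p = 0.068 and 0.078), and Abca1 when any 1 sham array was left out (adjusted p 0.072 to 0.099). After normexp background correction Fpr2 and Fpr1 missed it too (adjusted p = 0.11 and 0.18).

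Of 23 inducers and signalling genes of the acute phase, 18 were tested, 9 were higher and 1 lower, with a median log2 difference of 0.39. Fkbp5, a target of the glucocorticoid receptor, lay at 446, 719 and 447 in sham and at 4571, 4304 and 6896 in tail-suspended hearts, a log2 difference of 3.08 ± 0.24 (SE, adjusted p = 0.0022). Cebpd, a C/EBP factor induced in the acute phase, lay at 2729, 2644 and 3399 in sham and at 13592, 8581 and 15208 in tail-suspended hearts, a log2 difference of 1.85 ± 0.25 (adjusted p = 0.007). Socs3, a feedback inhibitor that STAT3 induces, was higher by 1.49 ± 0.16 (adjusted p = 0.0034), and Osmr, the receptor of oncostatin M, by 1.36 ± 0.12 (adjusted p = 0.0025). Nr3c1, the glucocorticoid receptor, was the gene that was lower, at -0.54 ± 0.10 (adjusted p = 0.015), and was named after its value was seen. It missed the threshold without sham replicate 1 or 2 or tail-suspension replicate 3 (adjusted p 0.053 to 0.064). The cytokine genes Il6, Il1a, Osm and Lif, 4 of the 5 not tested, were not well above background on any array.

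Of 15 transcription factors of liver and lipid metabolism, 9 were tested, 1 was higher and 0 lower, with a median log2 difference of 0.18. The gene that was higher was Nr1h3, the sterol receptor LXR alpha, which is known to drive Apoe and Abca1 in macrophages, at 1.11 ± 0.15 (SE, adjusted p = 0.0074). Another 6 factors were not tested, of which the hepatocyte factors Hnf4a, Foxa1, Foxa2, Foxa3 and Onecut1 were not well above background on any array.

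Of the 28 pathway genes past the threshold in either direction, 6 stayed past it under every alternative in which they were tested. C3, Serpina3n, Fkbp5, Socs3 and Osmr did so in 19 of 19 and Itih3 in 18 of 18. Itih3 was dropped where a probe had to be well above background on all arrays. Its calls rest on sham values below background, and its log2 difference ranged from 0.76 to 3.13 over the alternatives. With slide rows as a block, 8 pathway genes were higher in place of 25, and 0 lower in place of 3.

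**Figure D3:**
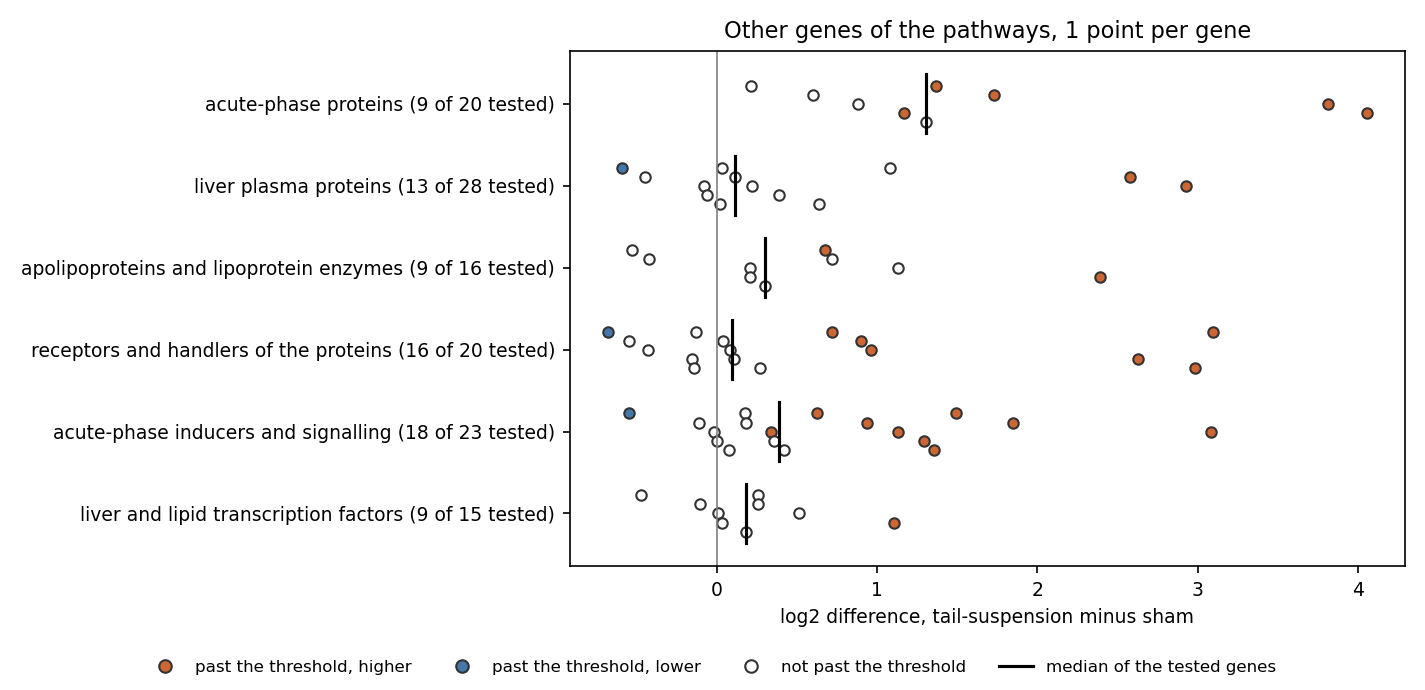
Log2 differences between tail-suspension and sham of the tested genes of 6 pathway lists, 1 point per gene, filled orange or blue where the gene was past the threshold (higher or lower), with a black line at the median of each list. The 5 acute-phase proteins and the 9 inducers and signalling genes that were higher lie to the right of 0, and the list of liver plasma proteins has its median at 0.12.

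Several of the 10 genes lie in chromosomal groups, and their neighbours were looked up after the values of Fetub and Apoc2 had been seen. On chromosome 16, Ahsg and Fetub lie next to each other and were both higher, the next genes Hrg, Kng2 and Kng1 were not well above background on any array, and the flanking genes Dnajb11 and Eif4a2 had log2 differences of 0.30 ± 0.16 (SE) and -0.07 ± 0.19. On chromosome 7, Apoc2, Apoc4, Apoc1 and Apoe lie in a row. Apoc2 was higher, Apoc4 was not well above background on any array, and Apoc1 had a difference of 1.13 ± 0.35 (SE, adjusted p = 0.063), beside 0.91 for Apoe. The flanking gene Tomm40 had a difference of -0.13 ± 0.09.

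Also on chromosome 7, Saa3, Saa4, Saa1 and Saa2 lie in a row, of which Saa4 and Saa2 were not well above background on any array, Saa3 was so only after tail-suspension, and Saa1 was so in both groups. On chromosome 9, Apoa1 and Apoa4 were not well above background on any array and Apoa5 was so on 1, while Apoc3 had a log2 difference of 0.21 ± 0.11 (SE). The flanking genes Sik3 and Zpr1 were both higher, at 0.67 ± 0.13 (adjusted p = 0.02) and 0.60 ± 0.14 (adjusted p = 0.034), and were not recomputed under the alternatives.

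**Figure D4:**
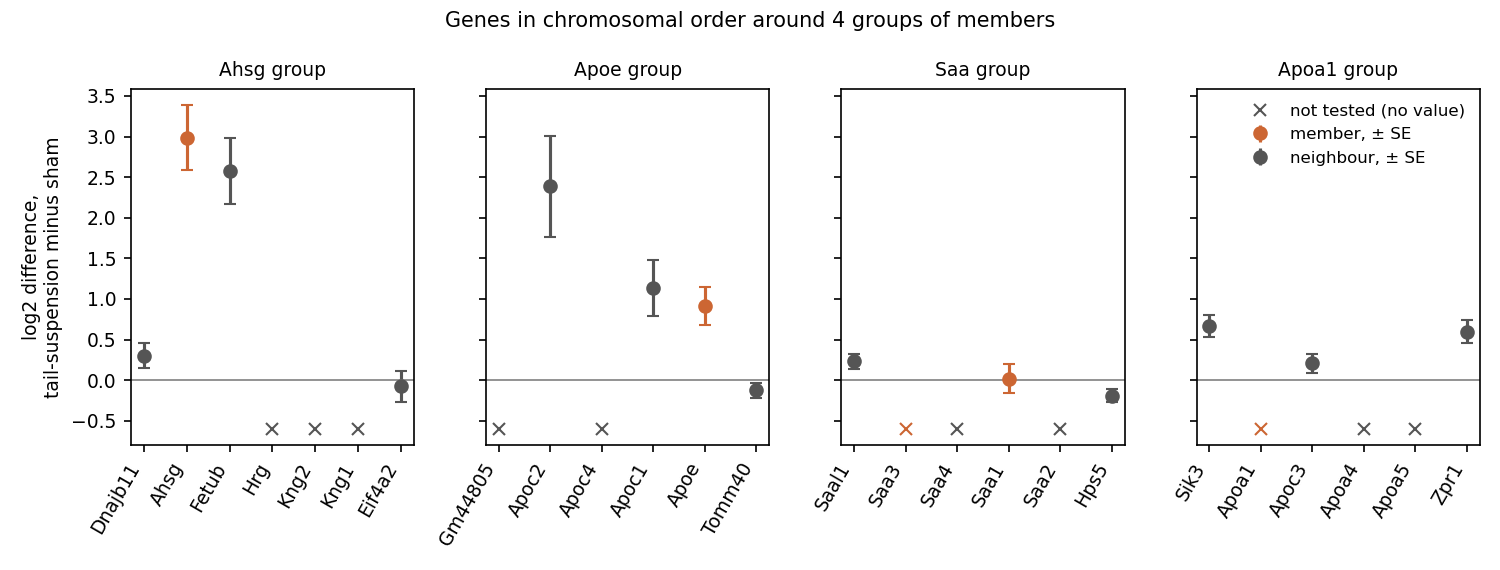
Log2 differences between tail-suspension and sham, with SE, of genes in chromosomal order around Ahsg, Apoe, the Saa genes and Apoa1, with orange for the chosen genes, grey for neighbours and crosses for genes that were not tested and have no value. The differences are 2.99 for Ahsg and 2.57 for Fetub in the first panel, 2.39 for Apoc2, 1.13 for Apoc1 and 0.91 for Apoe in the second, and 0.67 and 0.60 for the flanking genes Sik3 and Zpr1 around Apoa1.

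Genes with the pattern most like that of Hp, Apod and Ahsg were sought over the 6 arrays, by the root mean square difference of log2 levels after each probe was centred on its mean. The 3 genes were chosen for their group difference, so likeness to them includes that difference. For Hp the nearest genes well above background on all 6 arrays were S100a9 (0.36) and S100a8 (0.45). They encode the calgranulins of neutrophils. Their levels, like that of Hp, were highest in tail-suspension replicate 1, but the search itself favours genes with a like order of the arrays. For Ahsg it was Slc10a6 (0.23). Gm6522 for Hp, and Lox and LOC100038947 for Ahsg, also came among the nearest 3, but each was well above background on 3 of 6 arrays, so no distance is given. For Apod the rule took the dimmer probe, which was below background in sham hearts, and the genes it gave (Slc10a6, Serpina3n and C4b) are named without a distance for that reason. The brighter Apod probe was not used for this. Slc10a6 encodes a transporter of steroid sulfates, and its log2 differences were 3.41 and 3.31 by the 2 probes.

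Markers of cells that could supply these transcripts were read beside them. Hepatocyte markers were sparse in these hearts. Of 14, 7 were not well above background on any array, namely Cyp2c29, Tdo2, Hpd, G6pc, Cyp7a1, Asgr1 and Mat1a, and 6 were tested, of which 1 was higher and 0 lower. The summed level of the 14, where 1 is the 75th percentile, lay between 748 and 814 in sham and between 786 and 844 in tail-suspended hearts, but 1 bright probe, that of Slc10a1, made up nearly all of it. Without Slc10a1 the sum lay between 3.01 and 5.15 in sham and between 14.2 and 16.7 after tail-suspension. With Alb and Apoa1 not detected, and 7 of 14 hepatocyte markers likewise, the part of hepatocyte RNA in the levels of Ahsg, Ttr and Hp was not tested further.

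Of 12 neutrophil markers, 8 were tested and 5 were higher, while Csf3r, Elane and Camp did not pass. Of the 5, Retnlg, Ltf and Mpo were not well above background in sham hearts and entered the test through the tail-suspension group alone. The median log2 difference of 3.46 rests in part on those sham values, and after normexp background correction the differences were 1.82 for Retnlg, 1.30 for Ltf and 0.32 for Mpo. Those with the largest differences were Retnlg, not well above background in sham and at least 12.3-fold higher (adjusted p = 0.0038), S100a8 (4.80 ± 0.65, adjusted p = 0.0071), Ltf, at least 6.26-fold higher (adjusted p = 0.013), and S100a9 (4.62 ± 0.61, adjusted p = 0.0066), and the fifth was Mpo, named after its value was seen (adjusted p = 0.0028, and 0.13 after normexp background correction). Ltf missed the threshold without sham replicate 2 (adjusted p = 0.053), after normexp background correction and by the methods' t-test (adjusted p up to 0.066). S100a8 lay at 55.5, 43.3 and 29.0 in sham and at 3383, 549.9 and 1261 in tail-suspended hearts, with replicate 1 the highest and replicate 2 the lowest. Csf3r, whose probe made up most of the summed level, differed by 0.30 ± 0.11 (adjusted p = 0.093) and Elane by -0.30 ± 0.09 (adjusted p = 0.067). Without Csf3r the summed level lay between 1.79 and 2.21 in sham and between 9.25 and 53.2 in tail-suspended hearts. The part of neutrophil RNA in the Hp and Saa3 levels was not tested.

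Macrophages make Apoe, and of 12 macrophage markers 11 were tested and 1 was higher, Mertk, an efferocytosis receptor, at 0.72 ± 0.15 (SE, adjusted p = 0.021), which missed the threshold without sham replicate 1 or 2 or tail-suspension replicate 1 or 3 (adjusted p 0.063 to 0.082). At an unadjusted p under 0.05 by limma, 5 of the 11 macrophage markers were higher and 1 was lower. Their median log2 difference was 0.62, beside 0.91 for Apoe, and their summed level lay between 36.3 and 48.9 in sham and between 42.7 and 68.2 in tail-suspended hearts. Without Csf1r, the brightest, the sum lay between 17.5 and 24.1 in sham and between 23.4 and 40.2 after tail-suspension. The part of macrophage RNA in the Apoe level was not tested. Of 8 fibroblast markers 0 were higher and 1 was lower, Col3a1, at -1.88 ± 0.36 (adjusted p = 0.018), which missed it without sham replicate 2 or tail-suspension replicate 1 (adjusted p = 0.062 and 0.054). The highest difference among the fibroblast markers was that of Dcn, 0.34 ± 0.10 (adjusted p = 0.055), beside 3.40 for the brighter Apod probe. Of 5 Schwann cell markers 4 were tested and 0 passed the threshold by limma or the methods' t-test (1 at an unadjusted p under 0.05), with log2 differences from -0.86 to 0.64. Of 7 mesothelial markers 1 was tested, Wt1, at 0.35 ± 0.21 (adjusted p = 0.28). Of 10 adipocyte markers 3 were tested and 1 was higher, Lipe, at 1.06 ± 0.20 (adjusted p = 0.017, and 0.061 without sham replicate 2).

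Transcripts of red cells were read through erythroid markers, and the amount of blood in the hearts was not measured. Of 8, 7 were tested and 0 passed the threshold by limma or the methods' t-test (5 were lower at an unadjusted p under 0.05), with a median log2 difference of -1.50. Their summed level lay between 1088 and 1464 in sham and between 324 and 896 in tail-suspended hearts, without overlap. The sum is mostly globin, while Slc4a1 (-0.19 ± 0.30) and Ahsp (0.69 ± 0.74) overlapped between the groups. The part of blood in the plasma protein transcripts was not tested. Of 10 cardiomyocyte markers, each read from its brightest probe, 1 was lower, Actc1, at -0.33 ± 0.08 (adjusted p = 0.036, and 0.06 to 0.12 when any 1 array was left out). The probes of Myh6 disagreed. Its brighter probe differed by -0.09 ± 0.12 (adjusted p = 0.60), and its dimmer probe was lower, at -1.47 ± 0.23 (adjusted p = 0.0096), without overlap of the groups. The summed level of the cardiomyocyte markers lay between 5594 and 5923 in sham and between 5301 and 5702 in tail-suspended hearts.

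**Figure D5:**
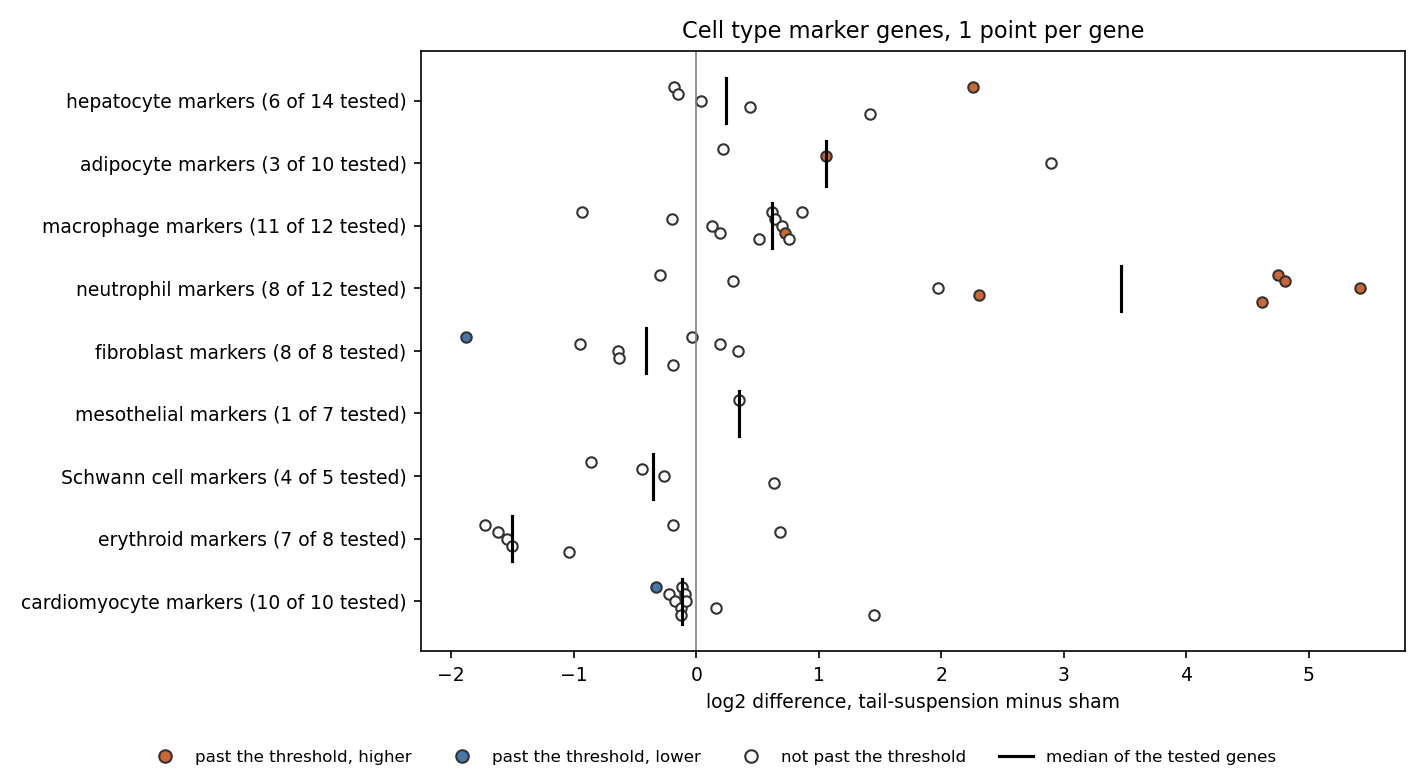
Log2 differences between tail-suspension and sham of the tested marker genes of 9 cell types, 1 point per gene, filled orange or blue where the gene was past the threshold (higher or lower), with a black line at the median of each list. The neutrophil list has 5 filled points and a median of 3.46, and the erythroid list has a median of -1.50 with no gene past the threshold.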

How the data were processed

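The authors deposited the scanner output of 6 one-colour arrays, made with Agilent Feature Extraction 10.7.1.1 per the labels, and 1 table that gives the same arrays as log2 values. From the deposited files the processed intensity was used, a background-corrected brightness per spot. Each column of the authors' log2 table had a median of 4.33 and, set against the log2 processed intensity of its own array, a correlation of 0.999, so the scale is log2, while the centring is not stated. This table served as an alternative.

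Controls and outlier-flagged spots were dropped, spots of a probe were averaged on the log2 scale, and each array was set relative to the 75th percentile of its 59305 spots that were no controls. A probe counted as well above background when at least 50% of its spots did, and was tested when this held on every array of at least 1 group. Both groups entered limma 3.58.1 (R 4.3.3, lmFit then eBayes) without covariates, with p-values adjusted by Benjamini-Hochberg over 28032 probes, and the steps were tested on simulated data. Precision is limited by the number of arrays, and with 3 against 3 the smallest p an exact two-sided permutation test allows is 0.1. The p-values measure the spread between these samples, since the labels tell replicates apart by number only.

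The 10 genes, the 15 gene lists and the motifs were chosen with earlier results of these data known. Of 208 list genes, 207 were found on the array, 1 of them (Adgre1) under an older name. Named from the lists are genes past the threshold, up to 4 a list by size, and each gene is read from its brightest tested probe. The paper's methods give the age of the mice differently from the labels. Alternatives tried were quantile normalization, normexp background correction (offset 50), another percentile, the authors' log2 values, 2 other filters, an intensity trend with robust estimation, outlier spots kept, the methods' t-test, array weights, a block for the replicate number or for slide rows, the median over the probes of a gene, and each array left out.

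Gene neighbours come from the RefSeq table of GRCm38.p6. Protein sequences were not used here, and single values of some list genes and some sequences are not reported here.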

Additional observations from a re-analysis of the deposited data

How the results depend on the processing

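The 6 probes of the chosen genes that were higher kept their direction under every alternative in which they were tested. Hp and the brighter Apod probe stayed past the threshold in 18 of 18, the dimmer Apod probe in 17 of 17, Ahsg in 17 of 18, Ttr in 15 of 17 and Apoe in 10 of 18. The number of probes of the chosen genes past the threshold was 3 with slide rows as a block, 4 by the methods' t-test, 4 with only probes well above background on all arrays (which drops Ttr and the dimmer Apod probe), and 5 to 7 with 1 array left out. The genes were chosen on this contrast, and the dimmer Apod probe entered the test only through the tail-suspension group. These counts are therefore a description and support no further statement. The median difference of the tested probes was 0.96 after normexp background correction, which adds an offset to every spot, beside 2.64. The cause of the other changes was not tested. Signal over background limits Ttr, Saa3 and the dimmer Apod probe, and only 1 tail-suspension array shared a slide row with sham arrays. All arrays lay on 1 slide, so blocking on the slide could not be run.

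Over all probes, 3023 higher and 2683 lower became 1041 and 790 with no filter on dim probes, 320 and 177 with slide rows as a block. The methods' t-test gave 1532 and 1248 once adjusted (4810 and 4696 unadjusted). With array weights 4465 probes were higher and 4355 lower. Leaving out 1 array gave 965 to 2932 higher and 726 to 2580 lower, the fewest without sham replicate 2.

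Of the pathway genes, 25 were higher and 3 lower. Those higher were 34 with array weights, 15 with no filter, 12 by the methods' t-test and 8 with the row as a block. Those lower were 5 with array weights, 1 by the t-test and 0 with the row as a block. Leaving out 1 array gave 15 to 34 higher and 0 to 6 lower, the most in both without tail-suspension replicate 2. Of the genes and probes past the threshold, Hpx alone changed sign, to -0.0070 after normexp.

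Of the cell type markers, 8 were higher and 2 lower. Those higher were 13 after normexp, 13 with an intensity trend, 19 with array weights, 5 with only probes well above background on all arrays and 5 by the t-test. Those lower were 8 after normexp, 4 after quantile normalization, 4 with the authors' log2 values, 0 with no filter, 5 with only probes well above background on all arrays, 7 with an intensity trend, 9 with array weights, 1 by the t-test and 0 with the row as a block. Leaving out 1 array gave 5 to 20 higher, the most without tail-suspension replicate 2, and 0 to 6 lower.

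Blocking on the replicate number left 1714 probes higher and 1403 lower, with 6 probes of the chosen genes past the threshold. Same-numbered arrays did not deviate together from their group means (correlations of -0.02, -0.02 and 0.05 for numbers 1, 2 and 3). The labels state no pairing, and these correlations cannot exclude one.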
